A study of Mus musculus with 8 samples.

Results

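Binding of retinoid X receptors (RXR) was described at 8 genes for the later steps of mitochondrial beta-oxidation, the pathway that shortens fatty acids to acetyl-CoA. The genes were Hadha, Hadhb, Hadh, Echs1, Eci1, Eci2, Acaa2 and Decr1, out of 21896 protein-coding genes. A peak was included when its summit lay inside one of these genes or within 50 kb of it, on RefSeq positions of the mouse build mm10. Of the 23961 peaks in the 4 hearts, 45 met this rule: 30 of 19129 in WT replicate 3, 14 of 4697 in WT replicate 4, 0 of 8 in edKO replicate 3 and 1 of 127 in edKO replicate 4. Hadha and Hadhb are neighbours, so the 8 genes form 7 loci.

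The samples were chromatin immunoprecipitates (ChIP-seq) of whole hearts from newborn mice at postnatal day 0. The 2 WT hearts were wild type, and the 2 edKO hearts carried a deletion of both Rxra and Rxrb that was limited to cardiomyocytes. Other cell types of the edKO hearts were not targeted, and neither the Cre driver nor the strain is stated in the labels. Each heart was fixed with DSG and then formaldehyde, immunoprecipitated with a single RXR antibody, and compared with its own input, and each was a separate biological replicate. Peak lists hold no RNA or protein, so neither the deletion nor the cell types of the tissue could be checked here.

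RXR binds DNA as a dimer with other nuclear receptors, among them the PPAR family, which switches on genes of fatty acid breakdown. In each turn of beta-oxidation a double bond is made, water is added, the hydroxyl group is oxidised, and a thiolase cuts off acetyl-CoA. Hadha and Hadhb encode the subunits of the trifunctional protein, which carries out the last 3 reactions on long chains. Echs1 (enoyl-CoA hydratase), Hadh (hydroxyacyl-CoA dehydrogenase) and Acaa2 (thiolase) act on shorter chains, and Eci1, Eci2 (isomerases) and Decr1 (a reductase) handle the double bonds of unsaturated fatty acids. The heart turns to fatty acids as its main fuel after birth.

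RefSeq promoter windows, from 250 bases before to 50 bases after a start site, were available for 6 of the 8 genes (all but Acaa2 and Decr1; build GRCm38.p6). Those below are shown because an RXR summit fell inside them, and each is written 5′ to 3′ on the strand of its gene. The Eci2 window, chr13:34994095-34994394 on the minus strand, held the summits of both WT hearts, and its 22 capitals run from one summit to the other. The Hadhb window, chr5:30155003-30155302 on the plus strand, also held both summits and lies almost wholly in the gap between the divergent Hadha and Hadhb, with 61 capitals from summit to summit. The Hadha window, chr5:30154931-30155230 on the minus strand, overlaps it, held the same summits and is not printed. The Eci1 window, chr17:24426433-24426732 on the plus strand, held the summit of WT replicate 3 alone, and its capitals mark that summit with 10 bases on either side. The Echs1 window, chr7:140116372-140116671 on the minus strand, held a summit of WT replicate 3 as well, and its capitals mark a partial match to a nuclear receptor motif.
Eci2: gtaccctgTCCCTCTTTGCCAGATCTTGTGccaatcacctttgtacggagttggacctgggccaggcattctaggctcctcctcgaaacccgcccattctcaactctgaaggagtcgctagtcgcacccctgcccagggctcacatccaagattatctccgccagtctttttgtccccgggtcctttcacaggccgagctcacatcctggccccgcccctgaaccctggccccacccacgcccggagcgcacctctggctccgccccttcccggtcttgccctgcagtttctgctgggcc
Hadhb: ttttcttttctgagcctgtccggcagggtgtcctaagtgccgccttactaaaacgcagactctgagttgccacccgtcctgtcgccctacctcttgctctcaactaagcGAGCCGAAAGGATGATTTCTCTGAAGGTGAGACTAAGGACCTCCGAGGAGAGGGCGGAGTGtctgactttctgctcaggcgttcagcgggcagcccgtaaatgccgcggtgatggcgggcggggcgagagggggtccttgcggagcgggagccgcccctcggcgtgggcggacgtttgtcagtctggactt
Eci1: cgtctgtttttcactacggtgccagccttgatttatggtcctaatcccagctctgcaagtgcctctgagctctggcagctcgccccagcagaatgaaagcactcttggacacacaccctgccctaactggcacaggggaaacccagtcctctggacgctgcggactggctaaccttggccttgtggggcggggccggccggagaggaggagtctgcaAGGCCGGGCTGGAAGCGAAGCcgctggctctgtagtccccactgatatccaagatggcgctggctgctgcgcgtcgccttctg
Echs1: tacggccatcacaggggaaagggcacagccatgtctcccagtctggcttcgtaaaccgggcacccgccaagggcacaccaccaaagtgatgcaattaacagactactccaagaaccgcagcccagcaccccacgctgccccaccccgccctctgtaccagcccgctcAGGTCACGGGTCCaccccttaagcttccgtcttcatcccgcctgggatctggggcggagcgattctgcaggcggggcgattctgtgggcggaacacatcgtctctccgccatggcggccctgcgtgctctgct

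Fold enrichment is a value of the authors for each peak, the fragment pileup at the summit over the local background of the same heart. It was read as having a constant added to both. The fragments printed here, divided by the background printed, therefore give a higher ratio than the fold enrichment. The number of fragments at a summit was recovered from the fold enrichment and the −log10 p, and is given with its 95% Poisson interval, which covers counting error only. In fragments per position, the lowest local background was 2.48 (WT replicate 3), 2.40 (WT replicate 4), 3.13 (edKO replicate 3) and 2.96 (edKO replicate 4). The weakest listed summit had 11 and 12 fragments in the WT lists, and 24 and 17 in the edKO lists. The 2 WT lists differ in length by a wide margin, so each value is given per heart and ranks are within a list.

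All 8 genes had a region with overlapping peaks in both WT hearts inside the gene or within 50 kb, where 32.4% of all protein-coding genes had one. The same 8 had one within 10 kb (17.4% of all genes), and 7 had one within 1 kb (13.1% of all genes), with Echs1 the exception. The members are longer than most genes, with a median of 28.7 kb against 17.1 kb, and a longer gene offers more room for a region. In all, 14 of the 4342 shared regions lay at the 8 genes. The nearest protein-coding gene was a member for 10 of the 14, and a neighbour (Selenoi, Fuom, Mlst8 or Myo5b) for the other 4. At the edge of the rule, the farthest peak included lay 49.9 kb from Acaa2 (fold enrichment 9.96 in WT replicate 3), and the nearest one left out in that heart lay 60.7 kb from Eci2 (5.74).

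By the mean fold enrichment of the strongest shared region the genes ran in the order Acaa2, Eci2, Hadh, Hadha with Hadhb, Decr1, Eci1 and Echs1. The means over both WT hearts were 37.0, 19.5, 18.7, 16.8, 10.2, 7.83 and 5.83. Acaa2 lay above Eci2 without overlap (32.7 to 41.3 against 11.6 to 27.3). Across hearts it overlapped Hadh by a narrow margin. The Hadh value of 32.72 in WT replicate 3 was just above the Acaa2 value of 32.71 in WT replicate 4. Within each heart, Acaa2 lay above Hadh (41.3 against 32.7, and 32.7 against 4.60). The ranges over both hearts overlapped for Eci2, Hadh and Hadha (11.6 to 27.3 at Eci2, 4.60 to 32.7 at Hadh, 10.6 to 23.0 at Hadha). Within each heart, Eci2 lay above Hadha (27.3 against 23.0, and 11.6 against 10.6). Whether these genes differ was not tested. Hadh lay above both in WT replicate 3 and below both in WT replicate 4, so it had no fixed place among them. Across hearts the values of Decr1 (6.13 to 14.4) overlapped those of Eci2, Hadh, Hadha, Eci1 and Echs1. Within each heart, Decr1 lay below Eci2 and Hadha and above Echs1, while its order with Hadh and with Eci1 changed between the hearts. The median over the 8 genes was 16.8, against 8.67 for all genes with a shared region within 50 kb. It was 23.0 in WT replicate 3 alone and 9.63 in WT replicate 4 alone, where the medians of all such genes were 10.6 and 6.58. In WT replicate 4 the gap closed at shorter distances, with 8.39 against 6.29 within 10 kb and 6.13 against 6.13 within 1 kb. In WT replicate 3 the median stayed at 23.0, against 10.0 and 9.78. Within 50 and 10 kb, Hadha and Hadhb enter these medians with the same region. With it counted for 1 gene only, the middle value in WT replicate 4 would be 8.63 (Eci1) within 50 kb and 6.13 (Decr1) within 10 kb. The 16.8 and 23.0 would not change. Neighbours share regions among all genes as well, with 2908 regions at 7095 genes within 50 kb. Taken over all 14 regions and not the strongest of each gene, the median of the means over both hearts was 7.79. That of the 4342 shared regions was 7.81.

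**Figure D1:**
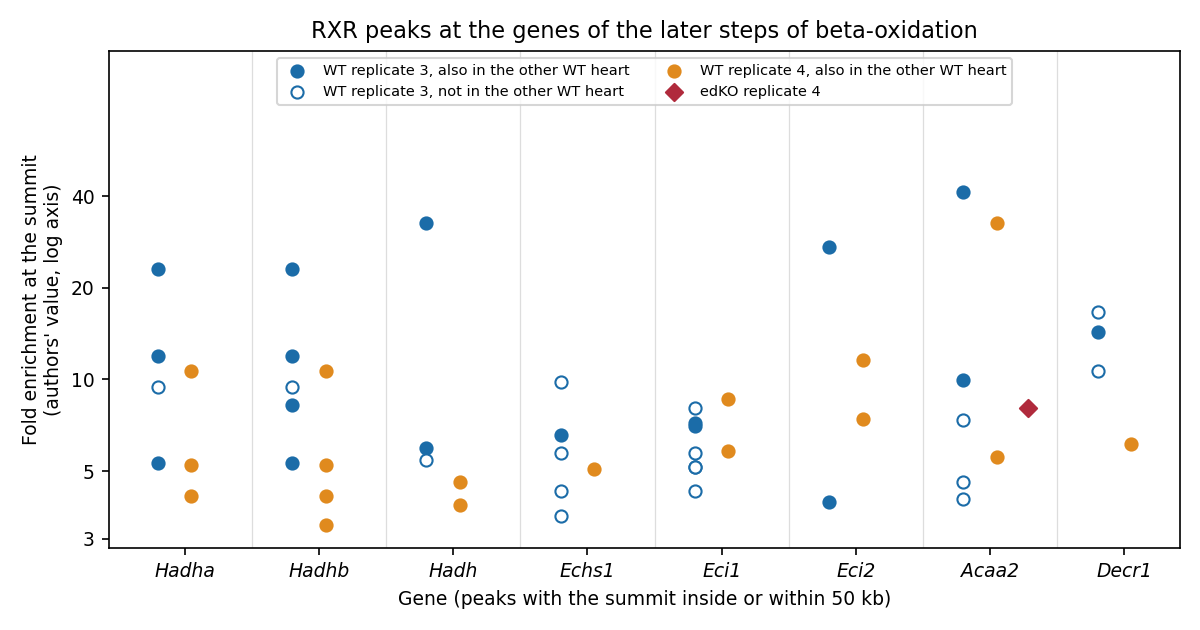
Fold enrichment at the summit (log axis) of every peak inside or within 50 kb of each gene, with 1 point per peak, filled where the other WT heart had an overlapping peak. Acaa2 had the strongest peak in each WT heart (41.3 and 32.7) and the only edKO peak (8.08), and peaks that Hadha and Hadhb share appear under both genes.

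Among the enzymes of hydration and dehydrogenation, the trifunctional protein genes shared their strongest region. It lay on chromosome 5 from 30151892 to 30152544, inside Hadha and 2764 bp downstream of the Hadha start site. The fold enrichment was 23.0 in WT replicate 3, from 107 fragments (interval 87.7 to 129), and 10.6 in WT replicate 4, from 43 fragments (31.1 to 57.9). It ranked at 344 of the 4342 shared regions by the mean of both hearts. Both WT hearts thus had their main signal at this locus in the body of Hadha and not in the promoter shared with Hadhb.

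The promoter region between Hadha and Hadhb was weak. The start sites of the genes are 273 bp apart, and the summits lay between them, 132 bp before the Hadha start site in WT replicate 3 and 81 bp before the Hadhb start site in WT replicate 4. The fold enrichments were 5.30 (19 fragments, interval 11.4 to 29.7) and 4.15 (17 fragments, 9.90 to 27.2), and the region ranked at 4085 of 4342. Within Hadhb, which carries the thiolase activity of the complex, a shared region lay 17009 bp downstream of the start site, with fold enrichments of 11.9 and 5.23. A peak next to it, 15149 bp downstream, was listed in WT replicate 3 only (9.43). The last shared region of the locus lay 47.8 kb outside Hadhb and nearest to Selenoi (8.22 and 3.32).

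Hadh, the dehydrogenase for shorter chains, had the region on which the WT hearts differed most. It lay inside the gene on chromosome 3 from 131245726 to 131246668, 26153 bp downstream of the start site. In WT replicate 3 the fold enrichment was 32.7, at rank 94 of 19129 peaks, with 113 fragments (interval 93.1 to 136) over a local background of 2.48. In WT replicate 4 it was 4.60, at rank 3923 of 4697 peaks, with 18 fragments (10.7 to 28.4) over 3.10. The summits were only 8 bp apart, and the intervals of the fragment numbers did not overlap. Nor did they at the strongest regions of Acaa2, Eci2, Hadha and Decr1, so this was not particular to Hadh. The ratio of the hearts was 7.11, where the median over the 4342 shared regions was 1.49 and 5% of them exceeded 3.02. None of the other shared regions had a ratio as high. What set the hearts apart at this site was not tested. The place of Hadh among the stronger genes rests on WT replicate 3, since its 4.60 in WT replicate 4 lay below the 5.08 of Echs1, the lowest of the other genes there.

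The other Hadh region lay 714 bp downstream of the start site in WT replicate 3, with fold enrichments of 5.96 and 3.87 and 49 and 31 fragments. Its local background was raised in both hearts, at 7.39 and 7.24 fragments per position. The hearts thus differed by less at this site than in the gene body, with a ratio of 1.54. A further peak 31.1 kb outside Hadh, nearest to Cyp2u1, was listed in WT replicate 3 only (5.45).

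Echs1, the hydratase for shorter chains, had the lowest mean of the 8 genes. Its shared region lay on chromosome 7 from 140101957 to 140102528, with the nearest gene being Fuom and Echs1 itself 3634 bp away. The fold enrichments were 6.57 and 5.08, with 25 fragments (interval 16.2 to 36.9) and 20 fragments (12.2 to 30.9). At the start site, which overlaps the neighbouring gene Paox, WT replicate 3 had a peak with its summit 2 bp downstream and a fold enrichment of 4.30 from 20 fragments. WT replicate 4 listed no peak there. The strongest peak near Echs1 in WT replicate 3, at 9.81, lay 9292 bp outside the gene and nearest to Paox, and it too had no partner in WT replicate 4. With 7 other protein-coding genes within 50 kb, the Echs1 peaks could belong to several genes, and no shared region had Echs1 as its nearest gene.

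Acaa2, the thiolase that cuts acetyl-CoA from shorter chains, carried the strongest region of the 8 genes. It lay on chromosome 18 from 74778398 to 74779596, across one end of the gene, with the summits 82 and 124 bp outside that end. In WT replicate 3 the fold enrichment was 41.3, with 193 fragments (interval 167 to 222), at rank 38 of 19129. In WT replicate 4 it was 32.7, with 114 fragments (94.0 to 137), at rank 16 of 4697. The ratio of the hearts was 1.26, below the median of 1.49 for all shared regions, and the region ranked at 23 of 4342 by the mean. A second shared region, 49.9 kb away and nearest to Myo5b, had fold enrichments of 9.96 and 5.55. The other 3 peaks of WT replicate 3 at this locus, from 4.04 to 7.33, had no partner in WT replicate 4.

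Eci2, an isomerase for unsaturated chains found in mitochondria and peroxisomes, had a strong region at its promoter. RefSeq gives Eci2 a span of 49.4 kb, but the start site in the promoter table lies inside this span, 32971 bp from the outer end. The region on chromosome 13 from 34994059 to 34994781 had its summits 221 and 242 bp upstream of that start site, within the bases shown in capitals above. The fold enrichment was 27.3 in WT replicate 3 (97 fragments, interval 78.7 to 118) and 11.6 in WT replicate 4 (59 fragments, 44.9 to 76.1), and the region ranked at 216 of 4342. Measured from the ends of the gene span, the same summit is 16.6 kb away from the nearer end, so a search limited to gene ends would not count it. The neighbouring Eci3, a close relative 13760 bp from Eci2, has this as its strongest shared region too, 30377 bp outside Eci3.

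The second Eci2 region, 31.2 kb outside the gene, was one of 2 among the 14 with a higher value in WT replicate 4 (3.97 in WT replicate 3 and 7.39 in WT replicate 4). Only 34 of the 4342 shared regions had a ratio this low. The fragments at its summits were nearly equal, 25 (interval 16.2 to 36.9) and 28 (18.6 to 40.5), and the local backgrounds were 5.54 and 2.90. The fragments thus differed by less than their counting error, while the local background of WT replicate 3 was the higher one.

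Eci1, the other isomerase, had 7 peaks in WT replicate 3 and 2 in WT replicate 4, all with fold enrichments between 4.31 and 8.63. The shared region inside the gene, on chromosome 17 from 24429174 to 24429569, lay 2689 bp downstream of the start site with fold enrichments of 7.18 and 5.81 (24 and 23 fragments). The promoter peak of WT replicate 3 was slightly stronger, at 8.04 from 27 fragments (interval 17.8 to 39.3) with its summit 23 bp before the start site, but had no partner in WT replicate 4. A second shared region lay 39.7 kb outside Eci1 and nearest to Mlst8 (7.03 and 8.63, 45 and 40 fragments). It set the rank of Eci1 among the 8 genes, and with the region inside the gene in its place the mean of Eci1 would be 6.49. Eci1 has 8 other protein-coding genes within 50 kb.

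Decr1, the reductase for chains with several double bonds, had 3 peaks in WT replicate 3, of 16.6, 10.6 and 14.4, and 1 in WT replicate 4, of 6.13. The shared region lay on chromosome 4 from 15945115 to 15945743, across one end of the gene, with 49 fragments (interval 36.3 to 64.8) and 20 fragments (12.2 to 30.9). The strongest peak of WT replicate 3, inside the gene with 57 fragments (43.2 to 73.9), had no partner in WT replicate 4. At Decr1, Echs1 and Eci1, unlike the other 5 genes, the strongest peak of WT replicate 3 was not shared.

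**Figure D2:**
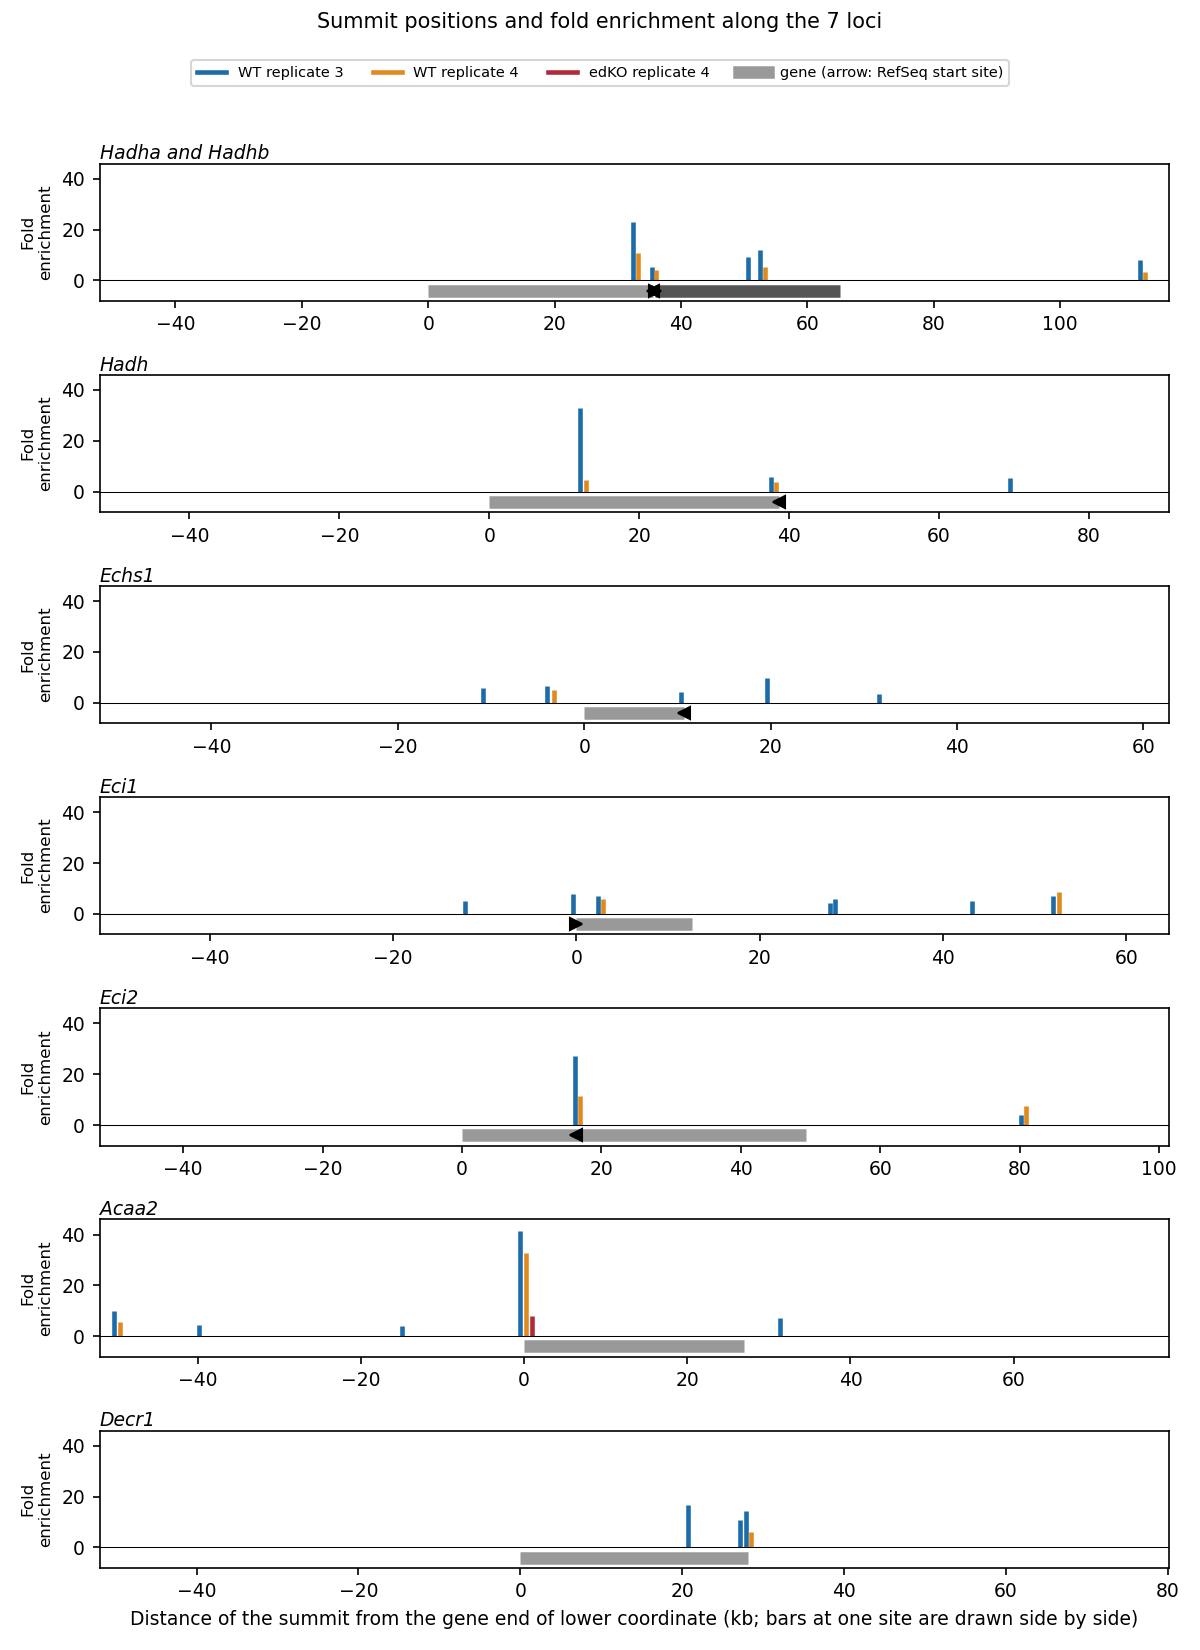
Height of each peak (fold enrichment, vertical axis) against the distance of its summit from the gene end of lower coordinate in kb, for the 7 loci, with genes as grey bars and RefSeq start sites as arrows. The main peaks of Hadha and Hadh lie in the gene body, that of Eci2 at the start site inside its span, and those of Acaa2 at a gene end.

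Where the regions sit relative to start sites was set against all RefSeq start sites. Of the 6 genes with a start site in the table, 4 (Hadha, Hadhb, Hadh and Eci2) had a shared summit within 1000 bp, where 6.81% of 32851 start sites had one. With all peaks of WT replicate 3, all 6 had a summit within 1000 bp, against 21.4% of start sites. In the 300-base windows the counts were 3 with a shared summit (3.04% of windows) and 5 with a summit of WT replicate 3 (10.2% of windows). Hadha and Hadhb count the same peak in these numbers. The windows shown above were rich in G and C, between 60.7 and 63.7%, against a median of 52.7% over all windows. The Hadha window, not shown, had 58.7%.

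The windows were also searched on both strands for letters that nuclear receptors are known to bind. The half-site AGGTCA was found in 16.3% of the 32851 windows and in 1 of the 6 at the member genes, that of Echs1. The direct repeat with a spacing of 1, AGGTCANAGGTCA, was found in 0.0396% of windows and in none of the 6, and with up to 2 mismatched letters in 3.86% of windows and again in Echs1 only. That match, AGGTCACGGGTCC, lies on chromosome 7 from 140116492 to 140116504 with its centre 79 bp from the WT replicate 3 summit, and holds the half-site just counted. The repeats AGGTCANNAGGTCA, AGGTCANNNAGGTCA, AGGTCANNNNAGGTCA and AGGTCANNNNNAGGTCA with up to 2 mismatches (between 2.79 and 3.06% of windows each) and the exact extended half-site TCAAGGTCA (0.423%) were found in none of the 6. The Eci2, Hadha and Hadhb windows, which hold the summits of both hearts, thus held none of these motifs, which says only that the letters are not in these windows. The Eci2 window ends at 34994394, close beyond its summits, while the region runs on to 34994781, and that part was not searched.

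The WT hearts were compared peak by peak at the 8 genes. All 14 listed for WT replicate 4 had a partner in WT replicate 3 (95% Clopper-Pearson interval 76.8 to 100%), where 94.4% of its whole list did. Of the 30 listed for WT replicate 3, 14 had a partner in WT replicate 4 (46.7%, interval 28.3 to 65.7%), where 22.9% of its whole list did. Peaks with a fold enrichment of at least 10 in WT replicate 3 were shared in 6 of 8 cases (75.0%, interval 34.9 to 96.8%), near the 77.8% of all peaks of that strength. Weaker ones were shared in 8 of 22 cases (36.4%, 17.2 to 59.3%), and 14.3% of all weaker peaks were. The exceptions among the stronger peaks were the 2 peaks inside Decr1. Peaks are not replicates, and the genes were chosen with earlier results known. The intervals therefore describe these counts and do not test the members against the whole list.

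Summits of the same region lay close together in both hearts, between 8 and 83 bp apart with a median of 41.5 bp, and the median over all shared regions was 36 bp. The fold enrichment was higher in WT replicate 3 at 12 of the 14 regions. Over all shared regions 17.3% were higher in WT replicate 4, so the direction at the members is that of the whole data set. The median ratio of WT replicate 3 to WT replicate 4 was 1.67 at the members and 1.49 over all shared regions.

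**Figure D3:**
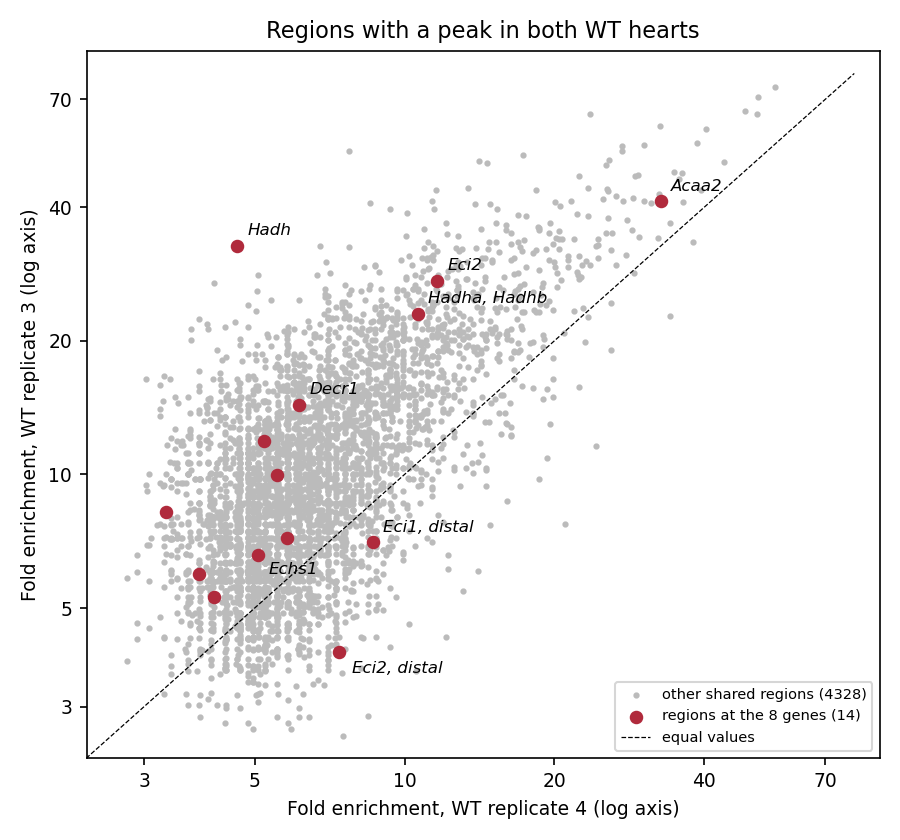
Fold enrichment in WT replicate 3 against WT replicate 4 (both log axes) for the 4342 shared regions, with the 14 at the 8 genes in red, the strongest region of each gene named, and a dashed line of equal values. Hadh lies farthest above the line (32.7 and 4.60), while Acaa2 lies close to it and the distal Eci2 region below it.

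The genotypes were then compared to ask how many of these peaks were listed without Rxra and Rxrb in cardiomyocytes. The hearts had 30 and 14 peaks at the 8 genes in WT and 0 and 1 in edKO, or 22.0 ± 11.3 (SD, n = 2) against 0.5 ± 0.707 (SD, n = 2). Both WT hearts lay above both edKO hearts, and the exact permutation test over hearts gave a two-sided p = 0.33, the smallest that 2 hearts against 2 allow. The difference of 21.5 peaks per heart was 13.5 without WT replicate 3, 13.0 with a distance of 10 kb, 11 with 1 kb, and 12.5 with only those peaks whose nearest gene was a member. The share of all genes with a peak inside or within 50 kb was 64.5 and 33.5% in the WT hearts, and 0.119 and 1.52% in the edKO hearts (replicate 3, then 4), so the loss of peaks was not limited to the members.

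The only edKO peak at these genes was that of Acaa2 in edKO replicate 4. It covered 247 bp with its summit 73 bp outside the gene, 9 bp from the summit of WT replicate 3. Its fold enrichment was 8.08, at rank 31 of 127 in that list, with 31 fragments (interval 21.1 to 44.0) over a local background of 2.96. The fragments in the WT hearts were 193 and 114 over 3.70 and 2.48, and their intervals did not overlap that of the edKO heart. The intervals of the WT hearts (167 to 222 and 94.0 to 137) did not overlap each other either. They cover counting error only, so they do not compare the genotypes. Fewer cells with RXR and less RXR per cell cannot be told apart in whole hearts. edKO replicate 3, with 8 peaks in all, listed none at Acaa2.

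The share of regions with a peak in edKO replicate 4 rose with their strength in the WT hearts. Over all shared regions, 2.88% overlapped a peak of edKO replicate 4 and 0.184% a peak of edKO replicate 3. Acaa2 and all 22 regions stronger than it overlapped a peak of edKO replicate 4 (23 of 23, or 100%), and of those ranked from 1 to 50, 88% did. Among ranks 101 to 400, which hold the main regions of Eci2, Hadh and Hadha, 15.3% did, and 0 of those 3 member regions. Among the ranks from 401 on it was 0.33%, and 0 of 10 member regions. No member region ranked from 51 to 100. The peak at Acaa2 and its absence elsewhere were thus near the shares for regions of those ranks.

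An unlisted region is not a measured 0. In the edKO lists the weakest summits held 24 fragments in edKO replicate 3 and 17 in edKO replicate 4, and 7 of the 14 member summits of WT replicate 4 held fewer than 24, while none held fewer than 17. In WT replicate 3, 11 of 30 held fewer than 24 and 3 fewer than 17. At the strongest regions of Acaa2, Eci2, Hadha with Hadhb, and Eci1, both WT hearts lay above these numbers, at 40 fragments or more. For Hadh, Echs1 and Decr1 the lower WT heart had 18 or 20 fragments, and a signal of that size could go unlisted in edKO replicate 3. It could go unlisted in edKO replicate 4 as well, where 17 is the weakest listed summit and not a limit of detection, and the median was 26.

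**Figure D4:**
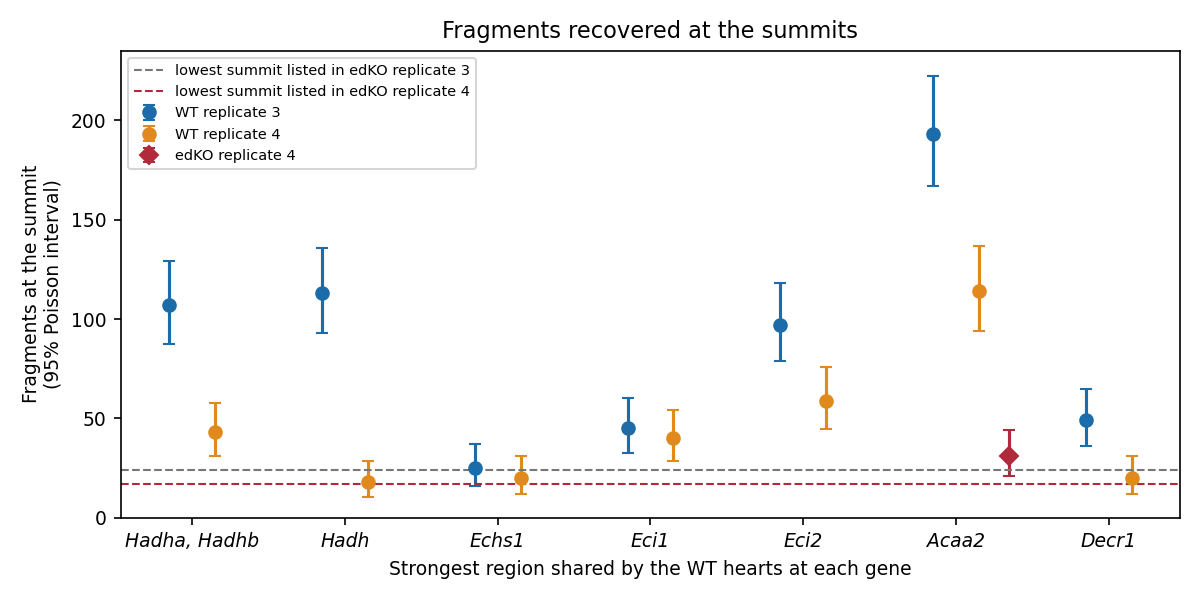
Fragments at the summit of the strongest shared region of each gene, with 95% Poisson intervals, for both WT hearts and for the Acaa2 peak of edKO replicate 4. The Eci1 region shown is the one outside the gene, nearest to Mlst8. Dashed lines mark the weakest summit in each edKO list (24 and 17 fragments), and the lower WT values at Hadh, Echs1 and Decr1 (18, 20 and 20) lie between them.

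Other genes of the pathway were set beside the 8 members, at the same distance of 50 kb. The earlier mitochondrial steps, from carnitine uptake to the acyl-CoA dehydrogenases and their electron acceptor, had a shared region at 13 of 13 genes, where 32.4% of all genes had one, with a median fold enrichment of 18.2. Cpt1a, the entry enzyme of the carnitine shuttle, led with 43.7 and 39.4 in WT replicates 3 and 4. It was followed by Etfb, a subunit of the electron transfer flavoprotein (29.6 and 26.5), and Slc25a20, the carnitine carrier of the inner membrane (27.8 and 22.6). Acaa2 with 41.3 and 32.7 lay between Cpt1a and Etfb in both hearts. All 13 also had one within 1 kb.

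Peroxisomal beta-oxidation, which runs the same chemistry with other enzymes, had a shared region at 4 of 11 genes within 50 kb and at 2 of 11 within 10 kb, near the 32.4 and 17.4% of all genes. The strongest were at Ech1 (28.4 and 16.9), nearest to Hnrnpl, at Acaa1a (29.6 and 12.7), nearest to Oxsr1, and at Eci3, which shares the Eci2 region. Acox3, Ehhadh, Hsd17b4, Acaa1b, Scp2, Decr2 and Pecr had none. Of 7 other genes grouped here as short-chain acyl-CoA enzymes, 2 had a region (28.6%, near the 32.4% of all genes). The activity of each enzyme was not checked. These were Hsdl2 (21.8 and 10.5) and Hibch (14.4 and 4.45), while Hsd17b10, Acat1, Echdc1, Echdc2 and Echdc3 had none.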

How the data were processed

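RXR ChIP-seq peak lists of 2 WT and 2 edKO hearts were used, 1 list per heart, with the input libraries entering only as background. Per the submitters' processing notes, the authors used cutadapt, BWA, SAMtools and MACS3 on mm10 (GRCm38), and their versions and settings are not stated in those notes. The deposited values per peak are the fold enrichment at the summit (a ratio), −log10 p and −log10 q, a display score that was not used, and positions in bp, printed 1-based. Since q depends on the list, the weakest −log10 q was 1.37, 1.57, 3.53 and 1.47 in WT replicates 3 and 4 and edKO replicates 3 and 4.

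Gene spans and promoter windows came from RefSeq tables of GRCm38.p6. No genome sequence was used, so peaks outside promoter windows were not searched for motifs. A region was shared when peaks of the WT hearts overlapped by at least 1 bp, with 1 peak per heart and the summit of WT replicate 3. Fragments at a summit were solved from fold enrichment and −log10 p as whole numbers within 0.02, after scaling by 0.967 in WT replicate 4 and 0.992 in edKO replicate 3, which succeeded for at least 99.96% of peaks per list. The method was tested on simulated data. Genotypes were compared over hearts by an exact permutation test. Alternatives were other distances, overlaps and thresholds, hearts left out, and pairing by number. Python 3.11.15, numpy 2.4.6, pandas 2.3.3 and scipy 1.17.1 were used.

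The members and the lists of other genes were chosen with earlier results of these data known. All members were named, as were the gene nearest to a region described, the 3 strongest genes of each other list and those with no region. The split at a fold enrichment of 10 and the groups by rank were chosen after seeing the data.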

Additional observations from a re-analysis of the deposited data

How the results depend on the processing

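Both WT hearts had more peaks at the 8 genes than both edKO hearts at distances of 50, 10 and 1 kb, with −log10 q of at least 5 (a difference of 18.5 peaks per heart), with −log10 p of at least 10 (16.0) and with only the nearest gene counted. Leaving out 1 heart gave differences between 13.5 and 29.5. With a replicate block, pairing hearts of the same number, the difference was 21.5 and the exact sign-flip permutation p = 0.5, the smallest that 2 pairs allow. The labels do not say that a number marks a litter or day. The 14 shared regions became 9 at 1 kb, 10 at 10 kb, and 11 and 10 under the stricter −log10 q and −log10 p, and stayed 14 under both other overlap rules. Without 1 of the WT hearts they were between 14 and 30, the latter being all peaks of WT replicate 3. The number of member genes with a region was 7 or 8 under each alternative. The median of their strongest regions within 50 kb was between 9.63 and 23.0 with 1 WT heart. In WT replicate 4 that median was 8.39 within 10 kb and 6.13 within 1 kb, the latter equal to that of all genes. The medians within 50 and 10 kb count the region shared by Hadha and Hadhb for both genes. Promoter windows with the direct repeat of spacing 1 numbered 0 with an exact match or 1 mismatch and 1 with 2 mismatches. The weakest listed summits had a −log10 p of 9.53 and 6.03 in the edKO lists (24 and 17 fragments) and of 3.85 and 4.70 in the WT lists (11 and 12 fragments), so a region with fewer fragments could be present and unlisted in edKO. The lowest local background among listed peaks was 3.13 and 2.96 fragments per position in the edKO hearts, and 2.48 and 2.40 in the WT hearts. These are lowest values over 8 and 127 peaks in edKO, and over 19129 and 4697 in WT. Lists of such unlike length cannot be used to compare the background or depth of the hearts.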
